A study of Mus musculus with 23 samples.

Results

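The miR-30 family was followed across 23 mouse retina samples in a table of 522 stem-loop RT-qPCR assays for microRNAs. An assay was taken as a family member when its name, without arm mark, locus number or hash sign, was mir-30a, mir-30b, mir-30c, mir-30d or mir-30e. This gave 9 of the 522 assays. Of these, 4 read a main arm of the hairpin (miR-30a-5p, miR-30c, miR-30d and miR-30e) and 5 read the other, minor arm (miR-30a-3p, miR-30e-3p, miR-30b#, miR-30c-1# and miR-30c-2#, where the hash marks the minor arm). The main arm of miR-30b was not analysed here.

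The study concerned the loss of Rb and its relative p107 in retinal progenitors and what the further loss of p53 or of Dicer1 adds to it. All samples were retina of mixed strain background, in 2 profiling sets that each had controls of its own. The first set held 3 wild-type (WT) samples, 3 DKO samples titled Chx10Cre; Rb lox/lox; p107 -/-, 3 DicKO samples titled Dicer1 lox/lox, and 4 DKO_DicKO samples that carry the DKO alleles together with Dicer1 lox/lox. The second set held 3 WT, 3 DKO and 4 DKO_P53KO samples, labelled by these names alone and read here as the DKO genotype without and with loss of p53. Chx10Cre drives Cre in retinal progenitors, so any retinal cell in which Cre did not act keeps its floxed alleles, and p107 is missing from every cell of the DKO animals. No Cre is named in the titles of DicKO, and the loss of Dicer1, Rb, p107 or p53 was not measured by these assays. Ages are not given, nor is it said whether each sample was a separate animal, so p-values measure the spread between samples, which may be technical.

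A microRNA is cut from a hairpin, first by Drosha in the nucleus and then by Dicer1 in the cytoplasm. Dicer1 releases a duplex of the 5p and the 3p arm. As a rule 1 arm is loaded into Argonaute and kept, and the other is degraded. The kept arm finds its target messages mainly through its seed, the bases 2 to 8 from the 5′ end. The miR-30 main arms share a seed and are abundant in many differentiated tissues. They are known for targets in epithelial-to-mesenchymal transition, in autophagy and in cell proliferation, and are among the microRNAs that Myc represses.

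The mature sequences are shown because the family falls into groups by seed, and because some members differ by a single base. RefSeq (build GRCm38.p6) held sequences for 7 of the 9 assays. The table had no entry for miR-30b or miR-30d, so the seed counts below leave out the arms of both. Bases 2 to 8, the seed, are in capitals.
miR-30a-5p: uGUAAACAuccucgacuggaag
miR-30c: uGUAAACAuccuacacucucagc
miR-30e: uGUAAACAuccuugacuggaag
miR-30a-3p: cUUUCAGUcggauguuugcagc
miR-30e-3p: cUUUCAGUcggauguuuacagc
miR-30c-1#: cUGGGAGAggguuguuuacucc
miR-30c-2#: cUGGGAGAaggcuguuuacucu
The main arms of miR-30a, miR-30c and miR-30e carried the seed GUAAACA, which occurs in 4 of 1679 mature mouse names in the table (0.238%). The fourth is miR-384-5p, a seed relative outside the family. The 3p arms of miR-30a and miR-30e shared the seed UUUCAGU, found in no other mature sequence of the table (2 of 1679 names, 0.119%). Both minor arms of miR-30c had the seed UGGGAGA, shared with miR-6958-5p (3 of 1679 names, 0.179%). Counting positions from 1 at the 5′ end, miR-30a-5p and miR-30e were identical at 21 of 22 positions and differed by C13U. MiR-30a-3p and miR-30e-3p were also identical at 21 of 22 positions and differed by G18A. MiR-30c matched miR-30a-5p at 17 of the first 22 positions, with all differences outside the seed. How far an assay also reads a sequence that differs by 1 base was not tested.

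Of the miR-30a and miR-30e hairpins both arms were measured, and these hairpins are printed with the 5p and 3p arms in capitals.
Mir30a: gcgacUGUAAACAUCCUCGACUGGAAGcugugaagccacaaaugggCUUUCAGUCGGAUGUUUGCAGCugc
Mir30e: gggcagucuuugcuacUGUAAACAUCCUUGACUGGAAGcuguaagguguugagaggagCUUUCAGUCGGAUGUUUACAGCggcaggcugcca
Mir30a lies on the plus strand at chr1:23272269-23272339 (GRCm38.p6), and Mir30c-2 lies 19361 bases further on, on the same strand, at chr1:23291701-23291784. No RefSeq gene span of the table holds either of them. Mir30e, at chr4:120772606-120772697, and Mir30c-1, at chr4:120769534-120769622, lie on the minus strand 2983 bases apart, both inside the span of Nfyc, which encodes a subunit of the NF-Y transcription factor. MiR-30c has the same mature sequence at both loci, so its assay cannot tell the chromosome 1 copy from the chromosome 4 copy. The minor arms of the 2 copies differ from each other by G9A, U12C and C22U and have an assay each.

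The family held some of the earliest-amplifying microRNAs of the retina and some that were barely detectable. The quantification cycle (Cq) is the PCR cycle at which the signal crosses a threshold. An earlier Cq stands for more template, with each cycle worth about a doubling. In the WT samples of the second set miR-30c had a Cq of 16.16, 16.81 and 17.27. MiR-30e-3p followed with 18.51, 18.58 and 19.61, miR-30a-5p with 18.61, 18.94 and 19.70, and miR-30a-3p with 19.17, 19.00 and 20.19. MiR-30e had 19.93, 20.45 and 21.14, and miR-30d had 20.68, 21.19 and 21.92. MiR-30b#, the minor arm of miR-30b, came last among the miR-30 assays read in all samples of this set, with 28.94, 28.84 and 29.81. Ranked by Cq within each sample over all assays with a value, miR-30c had a median rank of 6 in the second set and 5 in the first, miR-30e-3p ranked 25.5 and 26, miR-30a-5p 35.5 and 27, and miR-30d 76.5 and 71. The gap between miR-30c and the other assays exceeded the spread within the WT groups of both sets, whereas miR-30e-3p, miR-30a-5p and miR-30a-3p overlapped in Cq. Assays can differ in efficiency, so this order describes the assays and not molecule numbers.

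The remaining minor arms were near or below the detection limit, taken here as Cq 32. MiR-30b# had a value in all 10 samples of the second set, from 28.52 to 31.23, and was undetermined in all 13 samples of the first. MiR-30c-2# had a value in 5 of 10 samples of the second set: 30.09 and 30.90 in WT replicates 1 and 2, 30.85 in DKO replicate 2, and 31.00 and 33.64 in DKO_P53KO replicates 2 and 4. It was undetermined in the first set. MiR-30c-1# was undetermined in all 23 samples. The first set has no Cq above 32 at all, so an undetermined well there does not show that the microRNA was missing.

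All 6 assays read in both sets amplified several cycles later in the first set. Within the first set they amplified later again in both Dicer1 groups. MiR-30c had a Cq of 21.19, 19.31 and 21.24 in WT and of 21.14, 19.69 and 21.25 in DKO. It had 24.18, 21.52 and 25.81 in DicKO, and 22.39, 24.39, 24.53 and 24.04 in DKO_DicKO. MiR-30d had 26.42, 24.79 and 26.54 in WT, 26.37, 24.70 and 25.78 in DKO, 28.93, 27.10 and 31.31 in DicKO, and 28.06, 29.68, 29.47 and 30.46 in DKO_DicKO. Each Dicer1 group lay wholly above its control for both microRNAs. In the second set the order was the other way round for DKO_P53KO, where miR-30c had 16.19, 15.31, 16.44 and 15.76, all earlier than the 18.07, 16.91 and 17.84 of DKO. Amount of input RNA, efficiency of reverse transcription and level of microRNAs as a whole cannot be told apart in unscaled Cq.

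**Figure D1:**
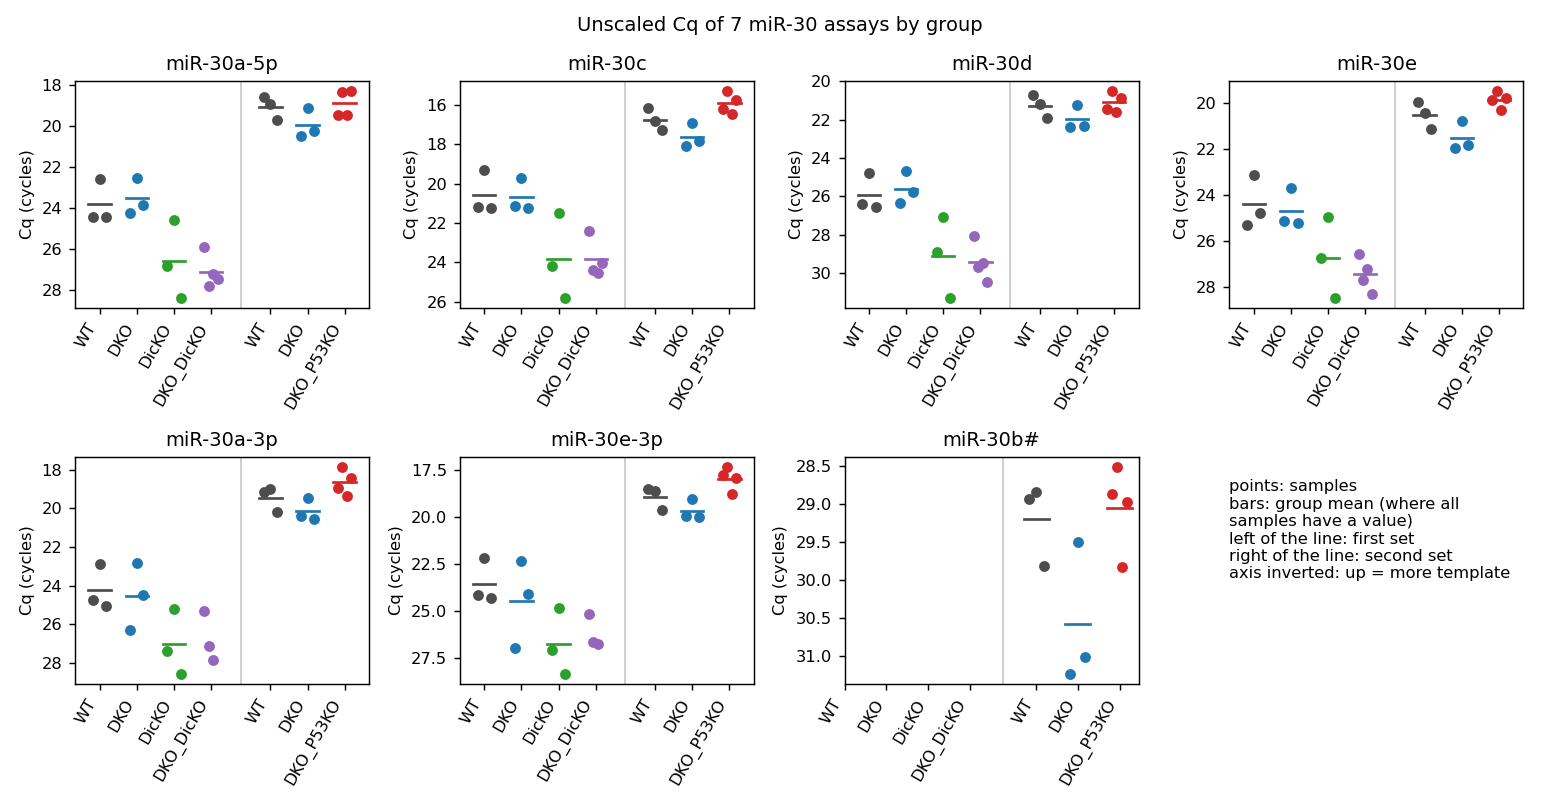
Unscaled Cq in cycles (inverted axis, so that more template is up) of 7 miR-30 assays in each of the 23 samples; points are samples, bars are group means where all samples of the group have a value, and the grey line parts the first set from the second. The assays read in both sets amplified later in the first set, on average latest in DicKO and DKO_DicKO, and miR-30b# has values in the second set only.

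To compare groups, each Cq was subtracted from a mean Cq, taken in the same sample over those assays that every sample of the fit had detected, which gives a log2 level relative to the sample mean. Such levels show whether a microRNA changed more or less than the rest, and carry no information on a shift of all microRNAs. The sets differed in depth, with 91 to 228 assays detected per sample in the first set against 307 to 350 in the other. The sensory microRNAs miR-182, miR-183 and miR-96, which mark photoreceptors, were detected in all samples of all 7 groups, and of 5 neuronal assays 4 were detected in all WT samples. Of 5 epithelial markers of the miR-200 family none was detected outside DKO_P53KO, and the red blood cell marker miR-486 was detected in no sample. In 2 samples of the first set both miR-30 3p arms stood apart. In DKO replicate 1 they had a Cq of 26.29 (miR-30a-3p) and 26.96 (miR-30e-3p) while the 5p arms, relative to the sample mean, were within or above the range of the other DKO samples, and in DKO_DicKO replicate 4 they were undetermined and were entered at the floor of -2.94. Minor arms of other hairpins also dropped out there: in DKO replicate 1, of the assays detected in both other DKO samples, 24 of 36 minor arms and 60 of 64 main arms were detected, and in DKO_DicKO replicate 4 the counts were 5 of 13 and 35 of 42. Changes of the 3p arms that involve the first set are therefore also given without these samples.

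In DKO_P53KO against WT, 4 of the 7 tested miR-30 assays were lower relative to the sample mean and none was higher. Over all 330 assays tested, 47.0% passed the test and 25.2% passed as lower. MiR-30b#, miR-30d and miR-30a-5p fell by about the same amount, miR-30e by less, and for miR-30c and both 3p arms the fall did not pass the test. The median change of the 7 assays was -0.61, against -0.07 over all assays tested. Relative to the sample mean all 7 changes were negative, but without any scaling all 7 were positive and 0 passed, since DKO_P53KO amplified earlier as a whole (median change over all assays 1.18 without scaling, where 51.8% of assays passed, 159 higher and 12 lower against 72 higher and 83 lower with it).

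MiR-30d had scaled levels of 2.91, 2.75 and 2.58 in WT and of 1.32, 1.78, 1.79 and 1.75 in DKO_P53KO. The groups did not overlap, and replicate 1 was the lowest of the 4. The change was -1.08 ± 0.23 log2 (SE, adjusted p = 0.00463). MiR-30a-5p had 4.99, 5.0 and 4.80 in WT and 3.29, 3.95, 3.93 and 4.29 in DKO_P53KO, a change of -1.07 ± 0.29 (adjusted p = 0.0141). It too was lowest in replicate 1. MiR-30b#, whose own main arm was not analysed, was at -5.35, -4.90 and -5.31 in WT and at -6.13, -6.22, -6.43 and -6.38 in DKO_P53KO, which gives -1.11 ± 0.29 (adjusted p = 0.0134). All 4 DKO_P53KO samples lay below the 3 WT samples.

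MiR-30e had 3.67, 3.49 and 3.37 in WT and 2.87, 2.81, 3.10 and 2.82 in DKO_P53KO. The groups were apart, and the change of -0.61 ± 0.21 passed narrowly (adjusted p = 0.0402). MiR-30c, the earliest of the family, was at 7.43, 7.13 and 7.24 in WT and at 6.55, 6.99, 6.95 and 6.85 in DKO_P53KO. Its groups did not overlap either, but the change of -0.43 ± 0.22 did not pass (adjusted p = 0.129). MiR-30e-3p changed least, by -0.28 ± 0.22 (adjusted p = 0.305), and miR-30a-3p had a change of -0.44 ± 0.25 (adjusted p = 0.174). The calls of all but miR-30d hung on single samples. Without WT replicate 2 only miR-30d stayed past the threshold, and adjusted p was 0.051 for miR-30a-5p (-1.03), 0.0589 for miR-30b# (-0.96) and 0.0964 for miR-30e (-0.62). The call of miR-30e was also lost without WT replicate 1 or 3, or without DKO_P53KO replicate 1, 2 or 4, with changes from -0.53 to -0.69 and adjusted p up to 0.144, and with a detection limit of Cq 35 (adjusted p = 0.0567) or with undetected values left missing (adjusted p = 0.0562).

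Some markers of cell types passed in the same comparison, where 47.0% of all 330 assays tested did. All 3 sensory microRNAs fell, with a summed level (log2) of 7.46 to 7.68 in the WT samples and of -2.84 to 4.91 in DKO_P53KO. MiR-204 and miR-211, which mark pigment epithelium, ciliary body and lens, both fell (sum 9.49 to 9.62 in WT, 7.50 to 8.57 in DKO_P53KO), as did 2 of 4 neuronal assays (8.26 to 8.33, and 5.90 to 8.72). Of 5 markers of white blood cells and microglia 3 rose (2.69 to 3.22, and 3.38 to 4.59), with miR-142-5p not detected in WT. Both tested epithelial markers, miR-200b and miR-200c, rose from not detected in WT. The sum over all 5 epithelial markers was -2.88 to -0.18 in DKO_P53KO. Of the muscle assays 1 of 4 fell, and 0 of 4 vessel assays passed. The part of cell composition in the miR-30 changes was not tested. In whole retina, fewer cells that make a microRNA and less of it per cell cannot be told apart.

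**Figure D2:**
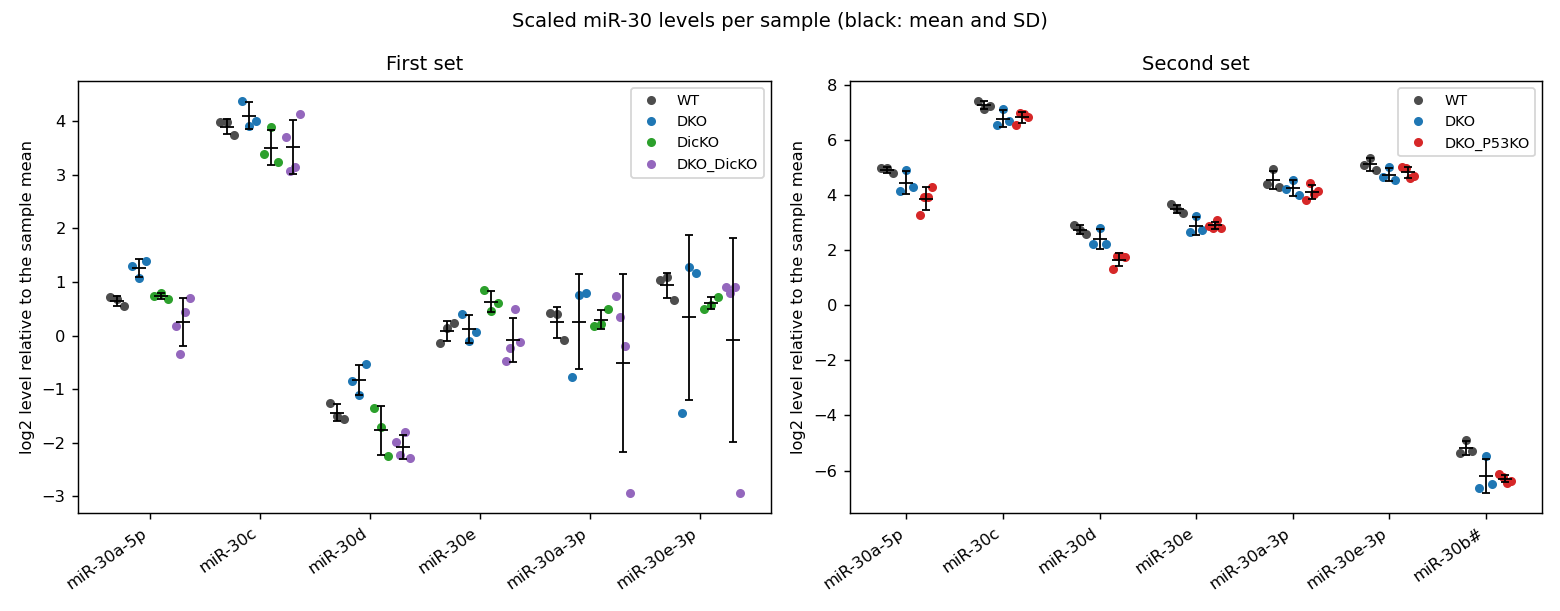
Scaled level of each miR-30 assay (log2 relative to the mean of the sample) per sample in the first set (left) and the second set (right); colours are groups, and black bars are the group mean and SD. In the second set DKO_P53KO lies below WT for miR-30a-5p, miR-30d, miR-30e and miR-30b#, and also for miR-30c, whose change did not pass. In the first set DKO lies above WT and DKO_DicKO below DKO for miR-30a-5p and miR-30d. The 2 points at -2.94 are undetermined wells of DKO_DicKO replicate 4 set to the floor.

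Against DKO, the loss of p53 went with a lower level of 1 miR-30 assay of 7, relative to the sample mean. Over all 330 assays 40.9% passed and 21.2% passed as lower. The member was miR-30d, with 2.21, 2.81 and 2.21 in DKO and 1.32, 1.78, 1.79 and 1.75 in DKO_P53KO. The groups did not overlap and the change was -0.75 ± 0.23 (adjusted p = 0.0308). The call was lost without DKO replicate 1 (-0.85, adjusted p = 0.0516), 2 (-0.56, 0.108 adjusted p) or 3 (-0.85, adjusted p = 0.0504), without DKO_P53KO replicate 1 (-0.61, adjusted p = 0.0597), and with only the compared groups in the fit (adjusted p = 0.0777).

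MiR-30a-5p, at 4.13, 4.92 and 4.29 in DKO, had a change of -0.58 ± 0.29 (adjusted p = 0.127), and its groups overlapped. The other 5 assays had changes between -0.14 (miR-30a-3p) and 0.08 (miR-30e-3p). Without scaling all 7 assays were positive, of which miR-30c, miR-30e and miR-30e-3p were so with scaling too. Then 5 passed, miR-30a-3p, miR-30b#, miR-30c, miR-30e and miR-30e-3p, by 1.49 to 1.71. Of all assays 60.6% passed without scaling, and the median over all was 1.53. MiR-30d was then at 0.88 and miR-30a-5p at 1.05, the smallest of the 7, and neither passed. In the scaled fit 40.9% of all 330 assays passed. Of the markers, 1 of 3 sensory, 2 of 4 neuronal, 1 of 4 muscle and both pigment epithelium and lens assays fell. Both epithelial, 2 of 4 vessel and 1 of 5 white blood cell assays rose. In DKO the summed sensory level was 4.13 to 5.56. DKO_P53KO was compared with both DKO and WT, so these comparisons share the DKO_P53KO samples.

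Loss of Rb and p107 gave no called miR-30 assay in either set. In the second set 0 of 7 passed in limma (2 had an unadjusted p under 0.05), where 0.647% of 309 assays passed. All 7 changes were negative relative to the sample mean and stayed so without scaling. MiR-30b# had the largest, -1.01 ± 0.32 (adjusted p = 0.202), with -6.63, -5.47 and -6.48 in DKO, all below the 3 WT samples. DKO replicate 2 was the highest DKO sample for all 7 assays. Without it the change of miR-30b# was -1.38 and passed (adjusted p = 0.0248). MiR-30e, at 2.67, 3.26 and 2.72 in DKO, was also below WT in every sample, with a change of -0.63 ± 0.24 (adjusted p = 0.321), and miR-30c likewise (-0.49 ± 0.24, adjusted p = 0.502). MiR-30a-5p had -0.48, miR-30e-3p -0.37, miR-30d -0.34 and miR-30a-3p -0.30. The median of the 7 was -0.48, against 0.08 over all assays. No cell type marker passed in this comparison, although all 3 sensory microRNAs had negative changes (-3.05 to -2.45).

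In the first set 0 of 6 miR-30 assays passed in limma between DKO and WT (2 had an unadjusted p under 0.05), where 17.3% of 133 assays passed. MiR-30a-5p had 0.73, 0.68 and 0.54 in WT and 1.30, 1.08 and 1.40 in DKO. The DKO samples were all higher, and the change was 0.61 ± 0.22 (adjusted p = 0.0887). With the median Cq in place of the mean it was 0.81 and passed (adjusted p = 0.0303). MiR-30d had -1.25, -1.50 and -1.55 in WT and -0.85, -1.10 and -0.53 in DKO, also without overlap, a change of 0.61 ± 0.24 (adjusted p = 0.107). MiR-30c had 0.20 ± 0.28 and miR-30e 0.04 ± 0.24. The 3p arms had wide errors, 0.01 ± 0.81 for miR-30a-3p and -0.60 ± 1.01 for miR-30e-3p. Without the 2 samples with late 3p arms miR-30a-3p was at 0.54 (adjusted p = 0.246) and miR-30e-3p at 0.31 (adjusted p = 0.247), so that the sign of miR-30e-3p turned. Of the markers, miR-182 fell (summed sensory level 2.67 to 2.98 in WT, 1.07 to 1.48 in DKO) and miR-204 rose (sum with miR-211 5.06 to 5.69, and 6.16 to 6.39), and their part was not tested.

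The DKO effects of the sets thus pointed in different directions for all 4 main arms, and for miR-30a-5p this difference passed its own test. Fitted over both sets on a common scale, miR-30a-5p had a DKO effect of 0.60 in the first set, against -0.45 in the second, a difference of -1.05 ± 0.31 (adjusted p = 0.0421). It was the 1 member of 6 that passed, where 18.6% of 167 assays did. MiR-30d had effects of 0.60 and -0.30 and differed by -0.90 ± 0.32 (adjusted p = 0.078). The effects of miR-30c were 0.19 and -0.45, and those of miR-30e were 0.03 and -0.60. Their differences did not pass either. The 3p arms differed by -0.27 ± 0.50 (miR-30a-3p) and 0.27 ± 0.76 (miR-30e-3p), and by -0.71 and -0.55 without the 2 samples with late 3p arms, where 0 of 6 passed (miR-30a-5p -0.96, adjusted p = 0.0613) and 14.9% of 188 assays did. The effect of miR-30a-5p kept its sign but did not pass without scaling (-1.16, adjusted p = 0.994), with median scaling (-0.97, adjusted p = 0.0802), or without any 1 of 10 of the 12 samples (-0.91 to -1.12, adjusted p up to 0.103). It passed without DKO replicate 2 of either set, where miR-30d passed as well (-1.11 and -1.08). Averaged over both sets, 0 of 6 miR-30 assays passed in limma (0 had an unadjusted p under 0.05) and changes lay between -0.47 (miR-30e-3p) and 0.15 (miR-30d), where 13.8% of assays passed. Without the 2 samples with late 3p arms miR-30e-3p was at -0.09 and miR-30a-3p at 0.05, from -0.13. The sets differ in genotype labels, depth and detection at once, and these cannot be told apart.

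In DicKO the miR-30 family amplified later than in WT, by about as many cycles as the other microRNAs. Unscaled log2 changes ran from -2.32 (miR-30e) to -3.26 (miR-30c), against a median of -3.06 over all assays tested without scaling. Without scaling 3 of 6 miR-30 assays passed as lower, miR-30a-5p, miR-30c and miR-30d, where 61.5% of 161 assays passed. Relative to the sample mean 0 of 6 passed in limma (1 had an unadjusted p under 0.05), where 36.1% of 133 assays passed (10 higher and 38 lower, against 0 higher and 99 lower without scaling). MiR-30a-5p was almost level, with 0.74, 0.79 and 0.68 in DicKO and a change of 0.09 ± 0.22 (adjusted p = 0.788), although without scaling it was at -2.78 (adjusted p = 0.0278). MiR-30d was at -1.35, -1.70 and -2.25, a change of -0.33 ± 0.24, and miR-30c had -0.39 ± 0.28.

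MiR-30e had the opposite sign relative to the mean, with -0.13, 0.15 and 0.24 in WT and 0.84, 0.45 and 0.60 in DicKO. The DicKO samples were all higher and the change was 0.55 ± 0.24 (adjusted p = 0.0873). Its own 3p arm went the other way: miR-30e-3p had 1.04, 1.10 and 0.67 in WT and 0.50, 0.58 and 0.72 in DicKO. Its change was -0.33 ± 1.01 in the fit over the whole set, whose error holds the 2 samples with late 3p arms. Without these samples it was -0.49 and passed (adjusted p = 0.0216) as the 1 member of 6, where 48.9% of 137 assays passed and 40.9% passed as lower, and with only DicKO and WT in the fit it was -0.62 (adjusted p = 0.0392). MiR-30a-3p, at 0.18, 0.21 and 0.50 in DicKO, had 0.05 ± 0.81, and -0.10 without the 2 samples. Among the markers, 1 of 3 sensory and 1 of 3 neuronal assays fell and 1 neuronal assay rose in the scaled fit, where 36.1% of all assays passed. The summed sensory level was 2.67 to 2.98 in WT and 1.93 to 2.31 in DicKO.

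In retinas that also lack Rb and p107, loss of Dicer1 went with lower miR-30a-5p and miR-30d relative to the sample mean. These were 2 of 6 members tested, both lower, where 32% of 125 assays passed and 27.2% passed as lower, so that the share of members called was near that of all assays. MiR-30d had -0.85, -1.10 and -0.53 in DKO and -1.98, -2.23, -1.80 and -2.28 in DKO_DicKO, a change of -1.24 ± 0.22 (adjusted p = 0.00141). MiR-30a-5p had 1.30, 1.08 and 1.40 in DKO and 0.19, -0.34, 0.44 and 0.71 in DKO_DicKO, a change of -1.01 ± 0.21 (adjusted p = 0.00326). Neither overlapped between the groups. Both calls held when any 1 of the 7 compared samples was left out, with changes from -1.38 to -1.17 for miR-30d and from -1.35 to -0.81 for miR-30a-5p. With only DKO and DKO_DicKO in the fit miR-30a-5p missed the threshold (-0.85, adjusted p = 0.0551).

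MiR-30c, at 4.38, 3.91 and 4.00 in DKO and 3.69, 3.06, 3.15 and 4.14 in DKO_DicKO, had -0.59 ± 0.26 (adjusted p = 0.114). DKO_DicKO replicate 4 was the highest of its group, and without it the change was -0.98 (adjusted p = 0.0177). MiR-30e had 0.41, -0.10 and 0.06 in DKO and -0.47, -0.24, 0.49 and -0.11 in DKO_DicKO, which overlapped widely (-0.21 ± 0.22, adjusted p = 0.545). The 3p arms had -0.77 ± 0.75 (miR-30a-3p) and -0.42 ± 0.94 (miR-30e-3p), values that include the wells of DKO_DicKO replicate 4 set to the floor. With those wells left missing they were at 0.04 and 0.53, and without DKO_DicKO replicate 4 at -0.15 and 0.34, and none of these passed. Without both samples with late 3p arms miR-30a-3p was at -0.63 (adjusted p = 0.11), and 3 of 6 assays passed, miR-30d (-1.34), miR-30a-5p (-1.30) and miR-30e-3p (-0.52, adjusted p = 0.035), where 26.8% of 138 assays passed and 26.1% passed as lower. The direction of miR-30e-3p thus depended on which of these 2 samples entered. The median change of the 6 assays was -0.68, against -0.11 over all. Without scaling all 6 passed as lower, where 63.1% of 157 assays passed, by -2.76 (miR-30e) to -3.80 (miR-30d). Of the markers, 1 of 3 sensory assays rose, 1 neuronal assay rose and 1 fell of 3, and 1 of 2 pigment epithelium and lens assays fell (sensory sum 1.32 to 2.82 and pigment epithelium and lens sum 4.76 to 6.51 in DKO_DicKO). Their part in these changes was not tested.

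Between DKO_DicKO and DicKO 0 of 6 miR-30 assays passed in limma (2 had an unadjusted p under 0.05), where 0% of 99 assays passed. MiR-30e had the lowest adjusted p of the family (-0.72 ± 0.23, adjusted p = 0.217), and without DKO_DicKO replicate 3 it passed (-0.92, adjusted p = 0.0218). MiR-30a-5p had -0.49 ± 0.22 and miR-30c 0.00 ± 0.27. The 3p arms had -0.81 ± 0.75 (miR-30a-3p) and -0.68 ± 0.93 (miR-30e-3p), and 0.01 and 0.28 without the 2 samples with late 3p arms. The difference between the effect of Dicer1 loss in DKO and in WT was tested as an interaction, where 0 of 6 miR-30 assays passed in limma (3 had an unadjusted p under 0.05) and 5.93% of 135 assays did. MiR-30a-5p came nearest, with -1.10 ± 0.30 (adjusted p = 0.0654), followed by miR-30d with -0.91 ± 0.32 (adjusted p = 0.13). The 3p arms had -0.82 ± 1.11 (miR-30a-3p) and -0.09 ± 1.38 (miR-30e-3p), and -0.53 and -0.02 without the 2 samples with late 3p arms. Without DKO_DicKO replicate 2 or 4 miR-30a-5p passed, at -0.90 (adjusted p = 0.0254) and -1.36 (adjusted p = 0.0238). The fall of miR-30a-5p and miR-30d on loss of Dicer1 was thus called in DKO and not in WT, but these effects were not shown to differ.

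**Figure D3:**
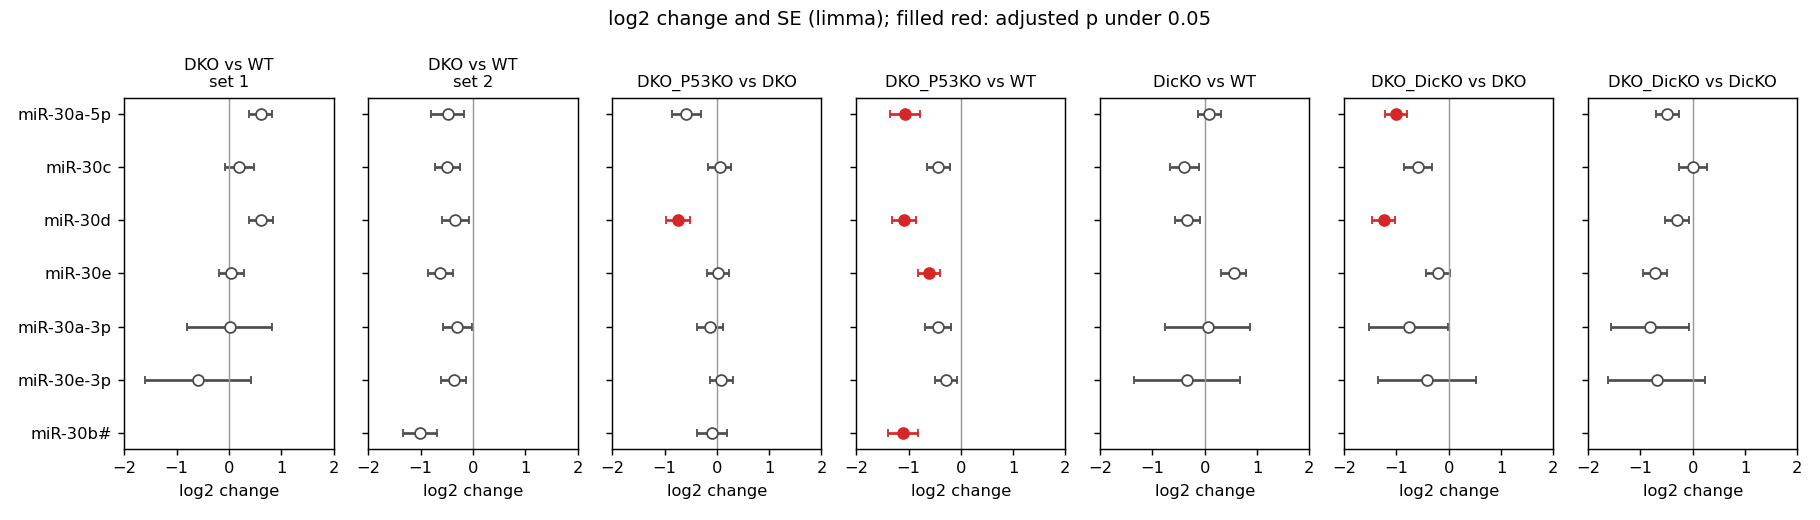
Log2 change of each miR-30 assay in the 7 comparisons within a set (limma, change ± SE, relative to the sample mean); filled red points passed an adjusted p of 0.05. MiR-30d passed in 3 comparisons and miR-30a-5p in 2, miR-30c and both 3p arms in none. The wide bars of the 3p arms in the first set hold the 2 samples with late 3p arms. Without scaling all changes in DKO_P53KO are positive.

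The arms of 1 hairpin are read in the same sample, so the Cq of the 3p arm minus that of the 5p arm needs no scaling. The miR-30a arms amplified at nearly the same cycle, and the 3p arm of miR-30e amplified ahead of the 5p arm that gives the microRNA its name. In the WT samples of the second set miR-30a-3p came 0.57, 0.06 and 0.49 cycles after miR-30a-5p. MiR-30e-3p came before miR-30e there, with differences of -1.42, -1.87 and -1.53. In the WT samples of the first set the values were 0.30, 0.29 and 0.63 for miR-30a and -1.17, -0.95 and -0.43 for miR-30e. The 2 hairpins did not overlap in either set of WT samples. As assays can differ in efficiency, a difference of 0 does not mean equal numbers of both arms.

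In DicKO the miR-30e arms were closer together than in WT, with differences of 0.34, -0.13 and -0.12. The shift was 0.88 cycles and the groups did not overlap (two-sided exact permutation p = 0.1, which is the lowest p possible with 3 samples on either side). DKO_DicKO, read in 3 of its 4 samples, had -1.38, -1.03 and -0.41. These 3 samples lay below DicKO without overlap (difference -0.97, exact permutation p = 0.1). The sample left out, DKO_DicKO replicate 4, had miR-30e at a Cq of 28.29 and miR-30e-3p undetermined. If its 3p arm was later than the detection limit, this sample would lie above all DicKO samples. The lack of overlap and the sign of the difference therefore hold only for the samples read. For miR-30a the same comparisons gave 0.03 (exact permutation p = 1) and -0.64 (exact permutation p = 0.4). The latter was -1.06 without DKO_DicKO replicate 3 and -0.40 without DKO_DicKO replicate 2. Between DKO and WT of the first set the differences were 0.60 for miR-30a (exact permutation p = 0.3) and 0.64 for miR-30e (exact permutation p = 0.9). DKO replicate 1 decided both: its arm differences were 2.06 and 1.85, against 0.33 and 0.61 for miR-30a and -1.38 and -1.11 for miR-30e in the other DKO samples, and without it the differences were 0.07 and -0.39. DKO_DicKO against DKO gave -1.20 and -0.73 (exact permutation p = 0.3 and 0.8), and -0.67 and 0.31 without DKO replicate 1. All values for DKO_DicKO leave out its replicate 4, where miR-30a-5p had a Cq of 27.47 and miR-30a-3p was undetermined too.

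In the second set the arm differences were tested with limma over 57 hairpins with both arms read in all samples. DKO_P53KO had -0.53, -0.49, -0.13 and 0.13 for miR-30a, so that 3 of 4 samples had the 3p arm ahead, and the shift from WT was -0.63 ± 0.24 (adjusted p = 0.0506), just short of the threshold. Of the 57 hairpins 42.1% passed in this comparison, and the median shift was -0.29. Without WT replicate 2 or DKO_P53KO replicate 4 the shift of miR-30a passed, at -0.79 (adjusted p = 0.0375) and -0.76 (adjusted p = 0.0228). For miR-30e the shift was -0.33 ± 0.22 (adjusted p = 0.249). Against DKO, where 38.6% of hairpins passed, the shifts were -0.44 (adjusted p = 0.153) and -0.07 (adjusted p = 0.847), and between DKO and WT, where 0% of hairpins passed, they were -0.19 and -0.26. With 1 sample left out the last 2 shifts ranged from -0.34 (without WT replicate 2) to -0.05 (without DKO replicate 1) for miR-30a and from -0.39 to -0.17 for miR-30e.

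**Figure D4:**
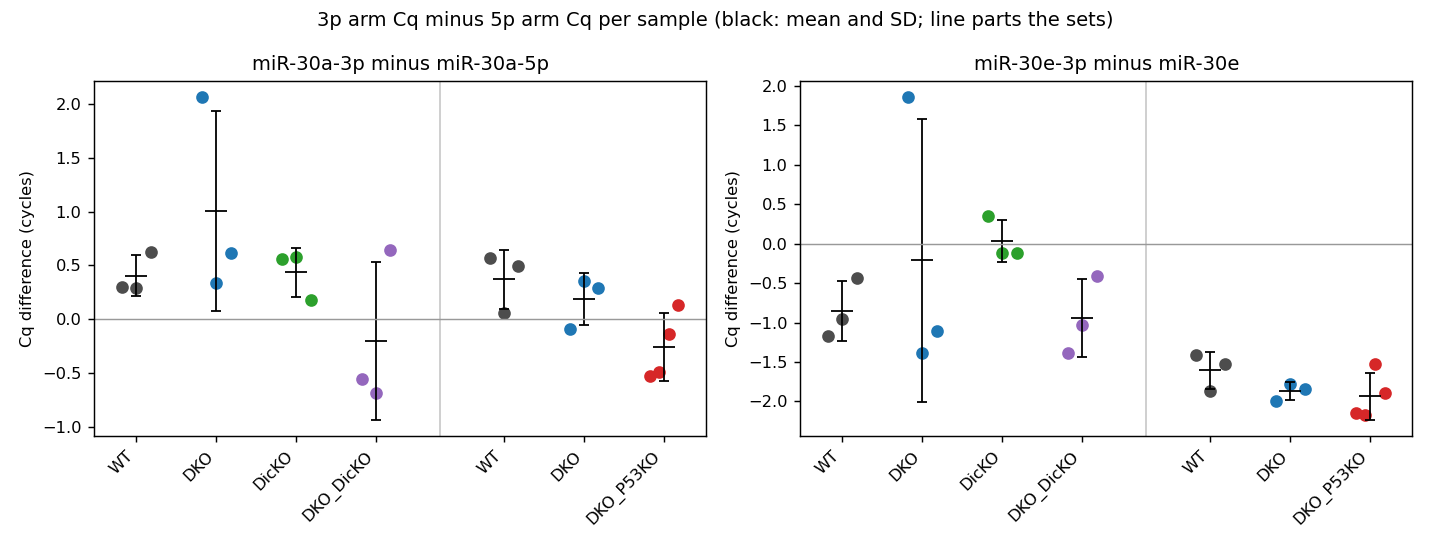
Cq of the 3p arm minus Cq of the 5p arm (cycles) for the miR-30a hairpin (left) and the miR-30e hairpin (right) in each sample; black bars are group mean and SD, and the grey vertical line parts the sets. The miR-30e points lie below 0 in WT of both sets and near 0 in DicKO, and DKO replicate 1 of the first set lies far above the other DKO samples in both hairpins.

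Across samples miR-30a-5p and miR-30d were each other's nearest assay. Likeness was measured as the root mean square distance of scaled levels, each centred on its mean within each set, among the 59 assays detected in all 23 samples. The samples share their scaling, so the distances are a description. MiR-30a-5p lay 0.27 from miR-30d, rank 1 of 58, and 0.34 from miR-30c, rank 2, and had miR-26a (0.41), let-7g (0.43) and miR-204 (0.47) as its nearest assays outside the family. The nearest of miR-30d outside the family were miR-26a (0.38), miR-204 (0.40) and let-7d (0.44). MiR-30c and miR-30e were nearest to assays outside the family. For miR-30c these were miR-191 (0.32), let-7g (0.34) and miR-320 (0.35), with miR-30a-5p at rank 3, and for miR-30e they were let-7g (0.37), miR-26b (0.44) and miR-26a (0.45), with miR-30a-5p at rank 2. The arms that differ by 1 base, miR-30a-5p and miR-30e, were 0.43 apart, and miR-30d and miR-30e were the farthest pair of main arms at 0.51.

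MiR-384-5p, the seed relative outside the family, passed in none of the 10 comparisons. In DKO_DicKO against DKO, where miR-30a-5p and miR-30d fell, it had a change of 0.88 ± 0.43 (adjusted p = 0.143), with 0.31, 0.35 and 0.31 in DKO and 1.62, 0.72, 0.10 and 2.37 in DKO_DicKO. Its DKO_DicKO samples spread widely, with replicate 3 below all DKO samples and the others above them. In DKO_P53KO against WT it had -0.34 ± 0.28 (adjusted p = 0.346).

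Other microRNAs that Myc is known to repress, among them let-7, miR-15a, miR-16, miR-22, miR-26, miR-29, miR-146a, miR-195 and miR-497, did not move in 1 direction. Of 20 such assays 19 were tested in DKO_P53KO against WT, where 6 fell and 5 rose. Of all 330 assays tested there, 83 were called lower and 72 higher. The falls were miR-26b (-1.36 ± 0.27), miR-22 (-1.14 ± 0.38), let-7a (-1.12 ± 0.24), miR-15a (-1.01 ± 0.26), let-7f (-0.76 ± 0.21) and miR-26a (-0.74 ± 0.25). The rises were miR-146a (2.80 ± 0.48), miR-497 (1.70 ± 0.40), let-7b (1.14 ± 0.23), miR-195 (1.07 ± 0.26) and let-7c (1.07 ± 0.27), with a list median of -0.49. Against DKO 2 fell and 3 rose of 19, beside 70 lower and 65 higher of all 330 assays. Between DKO and WT 3 of 14 rose in the first set, where 10.5% of all assays passed as higher. In the second set 0 of 19 passed, where 0.647% of all assays did. In DicKO against WT 5 of 14 fell and 1 rose, where 28.6% of all assays passed as lower and 7.52% as higher. In DKO_DicKO against DKO 4 of 14 fell, near the 27.2% of all assays, and 0 rose, where 4.80% of all assays did. In DKO_P53KO against WT both miR-26 main arms fell, with a median of -1.05, beside 3 of 4 miR-30 main arms lower and a median of -0.84. The miR-29 main arms had a median of -1.06, with both members negative and 0 of 2 called, and the let-7 main arms had 2 lower and 2 higher of 8 and a median of -0.34. In DicKO against WT the let-7 main arms had a median of -1.89 with 4 of 6 lower, and the miR-30 main arms a median of -0.12 with 0 of 4 called.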

How the data were processed

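RNA came from a Qiagen microRNeasy column, and a megaplex reaction primed cDNA for 522 miRNAs, followed by 14 cycles of pre-amplification, per the labels. The deposited Cq values are not normalized. Their threshold is not given in the sources used here. The members, lists and comparisons were chosen with earlier results of these data known. A scaled level is a mean Cq minus the own Cq, the mean being over assays with Cq 32 or lower in every sample fitted (61 assays in set 1, 284 in set 2, 145 over both). Undetected and lower values were set to a floor, -2.94, -7.40 and -4.83, the highest scaled Cq 32. Assays detected in all samples of at least 1 compared group were tested with limma 3.58.1 in R 4.3.3, two-sided, Benjamini-Hochberg adjusted over all tested assays, at 0.05. A fit held all groups of a set. Of the 9 members 6 were tested in set 1 and 7 in set 2. No miR-30 hairpin had both arms in all samples of the first set, so exact permutation tests replaced limma there. The fits were also run on simulated data with normal noise, which had no scaling step and no values set to the floor. All members are named, and beyond them the 3 nearest assays of each main arm and the Myc-repressed assays past the threshold. The alternatives tried are named in the closing section.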

Additional observations from a re-analysis of the deposited data

Results flagged for a closer look

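Of 13 sets of 4 scaled values, 2 held a sample far from the others by Dixon's test, which chance flags in about 1 of 20 sets. MiR-30e-3p was at -2.94 in DKO_DicKO replicate 4, an undetermined well set to the floor, beside 0.91, 0.79 and 0.90 in the other samples. MiR-30d was at 1.32 in DKO_P53KO replicate 1, beside 1.78, 1.79 and 1.75. The DKO effect on miR-30a-5p differed between the sets by -1.05 log2 (limma interaction, adjusted p = 0.0421), with DKO above WT in the first set and below it on average in the second.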

How the results depend on the processing

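Without scaling, the count of miR-30 assays called was 5 for DKO_P53KO against DKO, 0 for DKO_P53KO against WT, 3 for DicKO against WT, 6 for DKO_DicKO against DKO and 0 for the difference of the DKO effect between sets. Among assays called with or without scaling, the sign then turned in DKO_P53KO against DKO for miR-30a-3p (1.49), miR-30b# (1.53) and miR-30d (0.88). In DKO_P53KO against WT it turned for miR-30a-5p (0.19), miR-30b# (0.15), miR-30d (0.17) and miR-30e (0.64). In DicKO against WT it turned for miR-30a-5p (-2.78). Signs also turned for assays called in neither fit. Among these were miR-30a-5p in DKO_P53KO against DKO (1.05), miR-30c in DKO_P53KO against WT (0.82) and miR-30e in DicKO against WT (-2.32). Unscaled values hold the shift of each sample's mean by construction. Median scaling gave 1 call for DKO against WT in the first set and 0 for the difference between sets. With only the compared groups in the fit there were 0 calls for DKO_P53KO against DKO, 1 for DicKO against WT and 1 for DKO_DicKO against DKO. The miR-30e arm shift of DicKO (0.88) then passed in limma over only 4 hairpins (adjusted p = 0.00448). Its exact permutation p was 0.1, the lowest possible with these samples. Without the 2 samples with late 3p arms, an alternative chosen after seeing the data, 1 assay was called for DicKO against WT and 0 for the difference between sets. The mean without miR-30, Cq 35, missing values, assays detected throughout, and trend and robust estimation moved no count of calls by over 1.5 times. The cause of these differences was not tested.

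Replicates were taken as unpaired. Correlations between same-numbered samples were all positive in DicKO against WT (0.04, 0.64 and 0.53), so a pairing is possible there. Every other comparison within a set held a negative correlation. With a replicate block miR-30e lost its call in DKO_P53KO against WT (-0.58, adjusted p = 0.109) and miR-30c gained one in DKO_DicKO against DKO (-0.79, adjusted p = 0.0211). The counts were then 0 for DKO_P53KO against DKO (miR-30d -0.78, adjusted p = 0.0546), 0 for the difference between sets and 1 for the difference of the Dicer1 effects (miR-30a-5p -1.25, adjusted p = 0.0275), and the miR-30a arm shift in DKO_P53KO against WT was -0.76 (adjusted p = 0.0398).

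With 1 sample left out, calls ranged from 0 to 1 for DKO against WT in the second set, DKO_P53KO against DKO, DKO_DicKO against DicKO and the difference of the Dicer1 effects, from 1 to 4 for DKO_P53KO against WT, and from 0 to 2 for the difference between sets. Arm shifts of miR-30e ranged from -0.39 to 1.22 (DKO against WT, first set), -1.31 to 0.31 (DKO_DicKO against DKO) and -0.20 to 0.013 (DKO_P53KO against DKO), and those of miR-30a from -0.79 to -0.53 (DKO_P53KO against WT) and -0.038 to 0.164 (DicKO against WT). MiR-30b#, miR-30c-1# and miR-30c-2# were undetermined throughout the first set, so no change could be given for them there.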
